A study of Mus musculus with 16 samples.

Results

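The livers of 16 male wild-type C57BL/6J mice, aged 8 to 12 weeks when the diet began, were profiled by RNA sequencing, and 10 genes of the hepatic stellate cell and its matrix were followed through every library. The 10 genes were Col1a1, Col1a2, Col3a1, Col4a1, Acta2, Timp1, Dcn, Lrat, Reln and Tgfb1, taken by gene name from a deposited expression table of 57010 genes, and each name matched a single row. Levels are given as TPM, transcripts per 1000000 transcripts, a unit scaled by transcript length and to the same total in each library, so levels can be set side by side between genes. A level of at least 1 TPM on average over the 16 libraries was required for the model fitted across genes, which 11766 genes met. Of the 10 genes, 7 met it, and Col1a1, Acta2 and Timp1 lay below it.

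The mice formed 4 groups of 4. Control mice (mice 27, 28, 29 and 30) received neither agent. Cd mice (mice 1, 2, 5 and 6) were injected intraperitoneally with cadmium chloride at 1.25 mg/kg daily for 7 days. Se mice (mice 39, 40, 41 and 44) ate a diet with 2 ppm selenomethionine for 3 months, and Cd+Se mice (mice 13, 14, 15 and 16) received that diet and the cadmium injections. The vehicle of the injections and the diet of the mice without selenomethionine are not given in the sources used here. Mt1 and Mt2, metallothioneins that bind cadmium and are induced by it, matched the labels. Mt1 was 116 ± 73.3 TPM in control, 261 ± 158 TPM in Se, 4066 ± 707 TPM in Cd and 4880 ± 1274 TPM in Cd+Se livers (SD, n = 4 each), with no overlap between livers with and without cadmium. Mt2 was at most 306 TPM without and at least 2433 TPM with cadmium.

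Stellate cells lie between the hepatocytes and the sinusoidal endothelium and store vitamin A as retinyl ester, which the enzyme LRAT makes. On injury they can lose these stores, take on contractile actin and secrete fibrillar collagen and inhibitors of matrix breakdown, with TGF-beta as the best known inducer. The collagens type I and III form fibrils, collagen IV forms the sheet of basement membranes, and decorin is a small proteoglycan that binds collagen fibrils and TGF-beta. In whole liver, fewer cells of a type and less RNA per cell cannot be told apart, and the same holds for higher levels.

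The libraries of 3 mice stood apart and are named wherever a result rests on them. The library of Cd mouse 5 had 10917 genes at or above 1 TPM, the fewest of the 16, and its 20 highest genes took 47.3% of the total, the most of the 16. The library of Cd+Se mouse 13 held the highest level of Col1a1, Col1a2, Col3a1, Col4a1, Acta2, Timp1, Lrat and Tgfb1 among the 16. The library of Cd+Se mouse 15 was the lowest of its group in Col1a1, Col1a2, Col3a1, Col4a1, Acta2, Dcn, Lrat, Reln and Tgfb1.

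Promoter sequences are shown for the pair of fibrillar collagen genes that separated livers with and without cadmium, Col1a2 and Col3a1, and for 2 genes typical of quiescent stellate cells, Reln and Lrat. They are RefSeq sequences on GRCm38.p6, read on the strand of the gene, from a window of 250 bases before to 50 after the annotated start and cut to the part that lies in no exon of the GENCODE M21 annotation. For Col1a2 the RefSeq start lies inside the longer GENCODE gene whose position is given further on, so its stretch is upstream of the RefSeq transcript and in an intron of that gene. Capitals mark a match, on either strand, to the TATA box (TATAAA), the CCAAT motif, the GC box (GGGCGG) or the Smad-binding element (CAGAC). The stretches were chr6:4505370-4505492 on the plus strand for Col1a2, chr1:45311288-45311537 on the plus strand for Col3a1, chr5:22344703-22344955 on the minus strand for Reln and chr3:82903974-82904224 on the minus strand for Lrat.
Col1a2: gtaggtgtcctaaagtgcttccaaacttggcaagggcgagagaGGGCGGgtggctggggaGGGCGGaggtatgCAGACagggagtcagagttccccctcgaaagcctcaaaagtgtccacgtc
Col3a1: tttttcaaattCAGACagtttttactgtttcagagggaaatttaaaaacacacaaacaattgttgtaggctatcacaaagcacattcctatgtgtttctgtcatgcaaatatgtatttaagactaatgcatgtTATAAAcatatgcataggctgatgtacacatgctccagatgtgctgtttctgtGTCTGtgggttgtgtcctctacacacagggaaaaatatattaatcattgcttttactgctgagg
Reln: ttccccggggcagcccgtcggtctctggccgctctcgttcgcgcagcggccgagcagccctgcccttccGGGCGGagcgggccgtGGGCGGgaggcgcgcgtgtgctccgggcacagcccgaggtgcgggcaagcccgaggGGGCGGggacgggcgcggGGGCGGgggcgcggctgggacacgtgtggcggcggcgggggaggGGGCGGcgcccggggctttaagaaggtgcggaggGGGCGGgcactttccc
Lrat: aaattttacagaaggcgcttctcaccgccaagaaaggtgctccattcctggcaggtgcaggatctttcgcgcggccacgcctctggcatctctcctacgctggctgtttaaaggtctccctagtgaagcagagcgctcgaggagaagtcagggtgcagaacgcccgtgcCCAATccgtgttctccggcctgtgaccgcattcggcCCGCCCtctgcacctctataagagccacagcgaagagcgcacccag

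Over the whole windows, Col3a1 held 1 TATA box and 2 Smad-binding elements with no GC box, whereas Reln held 6 GC boxes and none of the other motifs. Col1a2 held 2 CCAAT motifs, 2 GC boxes and 1 Smad-binding element, some of them in the part not printed, and Lrat held 1 CCAAT motif and 2 GC boxes. Among 32851 mouse promoter windows of the same length, the TATA box was present in 13.6%, the CCAAT motif in 37.4%, the GC box in 35.7% and the Smad-binding element in 49.6%. An exact CArG box (CC, 6 letters A or T, GG), the serum response factor element, was present in 1.63% and in none of the 8 windows found for these 10 genes. Near matches were not counted. The Acta2 window holds ccctatatgg and ccttgtttgg, which each differ from that pattern by 1 letter. The CCAAT letters can lie within a CArG box, and no matches printed above overlap each other. These matches describe the letters of the window and are not evidence of binding.

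Averaged over both diets, the fibrillar collagen genes Col3a1 and Col1a2 were higher in the livers of mice given cadmium. Col3a1 (ENSMUSG00000026043, chromosome 1, 45311538 to 45349706), the chain of collagen III, measured 2.72, 2.72, 2.03 and 2.37 TPM in control mice 27 to 30 and 2.40, 2.90, 2.80 and 1.62 TPM in Se mice 39, 40, 41 and 44. In Cd mice 1, 2, 5 and 6 it measured 4.17, 3.20, 4.41 and 7.85 TPM. The Cd+Se mice 13 to 16 had 19.06, 6.95, 3.80 and 10.61 TPM. Every liver with cadmium lay above every liver without it, and Cd+Se mouse 13 stood highest. The order of the group means was Se, control, Cd and Cd+Se, at 2.43 ± 0.582, 2.46 ± 0.331, 4.91 ± 2.03 and 10.1 ± 6.59 TPM (SD, n = 4 each). Se and control overlapped fully, and Cd and Cd+Se overlapped as well.

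Col1a2 (ENSMUSG00000029661, chromosome 6, 4504814 to 4541544), which encodes the alpha 2 chain of collagen I, measured 1.44, 1.40, 0.94 and 0.85 TPM in control and 1.27, 1.10, 1.68 and 0.76 TPM in Se mice. It measured 1.98, 1.73, 1.78 and 2.48 TPM in Cd and 5.90, 2.15, 1.96 and 3.75 TPM in Cd+Se mice. Again no liver with cadmium fell into the range of the livers without it, although the gap between Se mouse 41 and Cd mouse 2 was narrow. The partner chain Col1a1 (ENSMUSG00000001506, chromosome 11, 94936224 to 94953042) was scarcer, at 0.348 ± 0.262 TPM in control, 0.420 ± 0.216 in Se, 0.765 ± 0.178 in Cd and 1.69 ± 1.08 in Cd+Se livers. Its 4 Cd+Se values, 3.22, 1.10, 0.80 and 1.65 TPM, lay above every control and Se value, while the Cd values of 0.60 to 0.96 TPM overlapped the highest control mouse at 0.72 TPM.

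**Figure D1:**
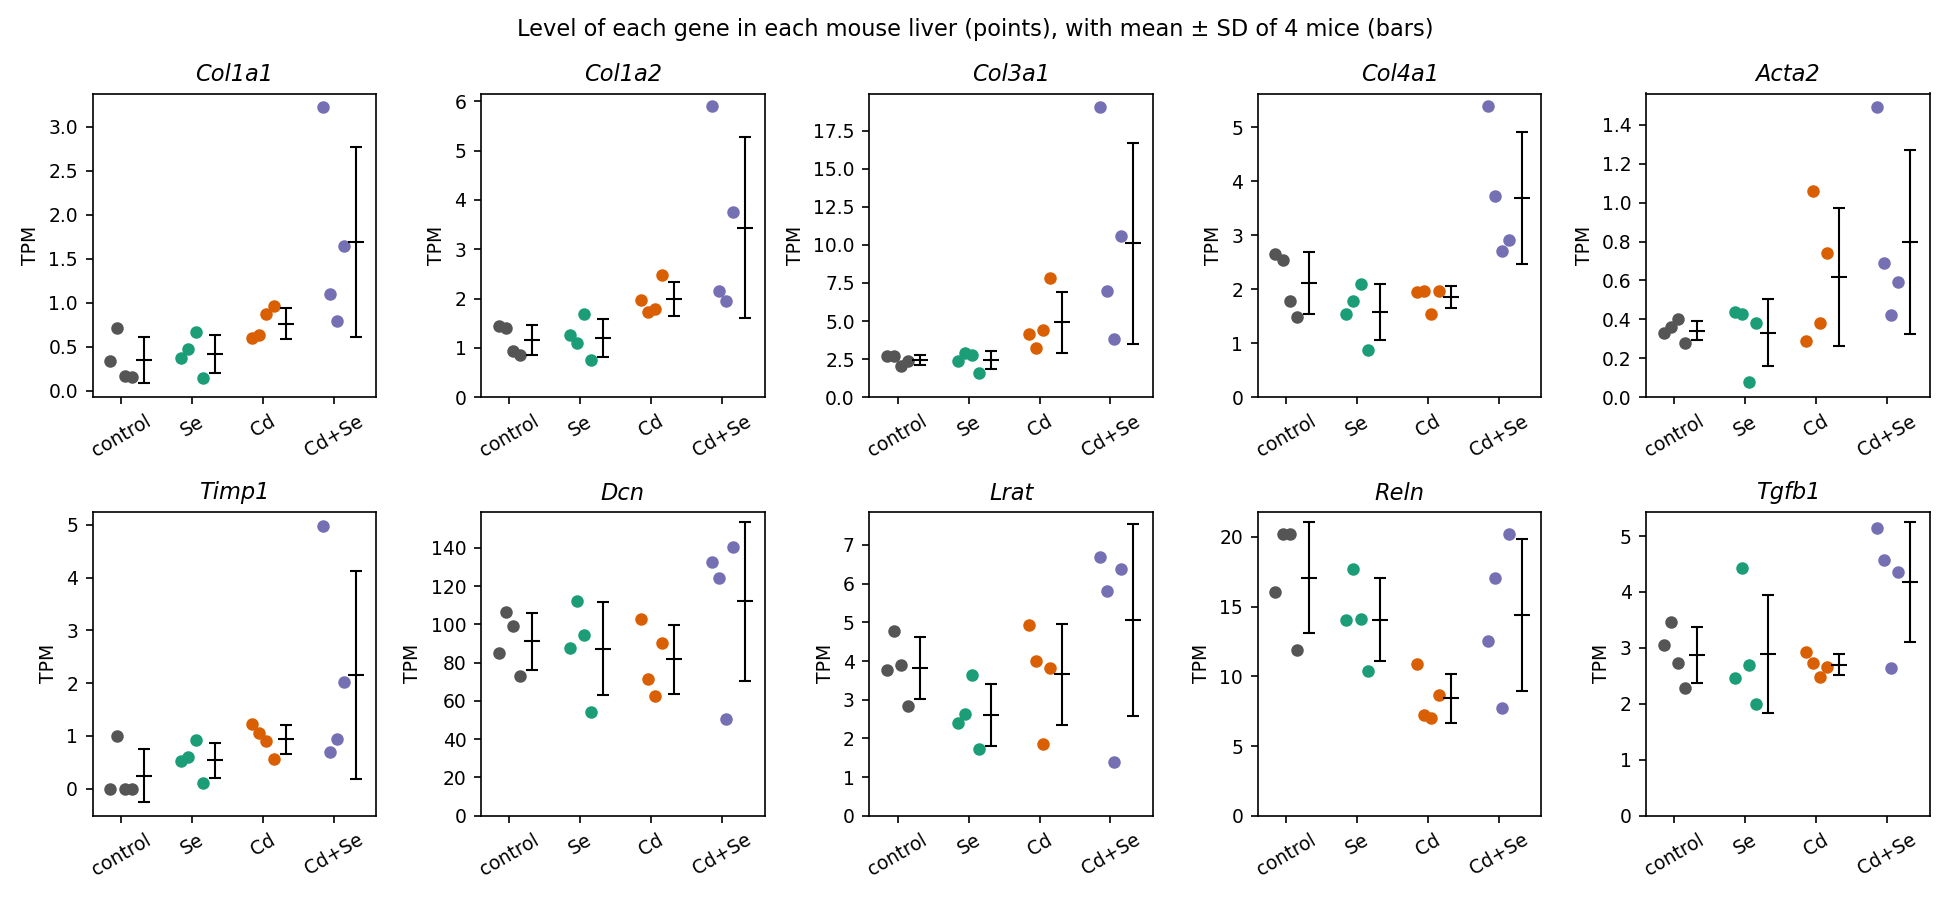
TPM of the 10 genes in each of the 16 livers, a panel per gene, with the groups in the order control, Se, Cd and Cd+Se; points are mice and bars the mean ± SD of 4 mice. In Col3a1 and Col1a2 the 8 livers with cadmium lie above the 8 without it, whereas Reln is lowest in the Cd group, at 7.04 to 10.85 TPM.

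Tests across genes used limma on log2(TPM + 1) with Benjamini-Hochberg adjustment over 11766 genes, and fold changes are on that scale, which understates changes of low genes. Averaged over both diets, a contrast chosen after seeing the data, cadmium raised Col3a1 by 1.12 ± 0.229 log2 (SE; fold 2.17, adjusted p = 0.00343) and Col1a2 by 0.71 ± 0.160 log2 (fold 1.63, adjusted p = 0.00568). In that contrast 5.52% of the genes tested were called higher and 19.6% lower, and the 8 livers with cadmium lay wholly above the 8 without it for 0.391% of genes. Centring each library on its median moved the calls of this contrast from 649 higher and 2310 lower to 1954 higher and 1596 lower. The calls of both genes held under all 23 alternative settings, with adjusted p-values from 0.000568 to 0.0126 for Col3a1 and from 0.00268 to 0.0180 for Col1a2. These settings do not include a minimum log2 change of 1, which Col1a2 does not reach. The exact permutation test of 8 against 8 livers gave 0.000155 for both genes, the smallest value it allows. With the 20 highest genes left out and the rest rescaled, the Col1a2 ranges overlapped and that p was 0.000311. Col1a1, below the filter, rose by 0.63 ± 0.158 log2 in the same contrast fitted without the filter (adjusted p = 0.0244; exact permutation p = 0.000932).

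Taken separately, the diets gave less certain calls. In Cd against control, 5.82% of genes were called higher and 24.9% lower, 6.44% lay wholly above and 27.8% wholly below the control range, and the median gene moved by -0.17 log2. Col3a1 differed by 0.72 ± 0.324 log2 (fold 1.65, adjusted p = 0.102) and Col1a2 by 0.48 ± 0.226 log2 (fold 1.39, adjusted p = 0.119), neither past the threshold, although the 4 Cd livers lay above the 4 control livers for both (exact permutation p = 0.0286, the smallest possible). With each library centred on its median gene, the differences were 0.94 log2 for Col3a1 (adjusted p = 0.0487) and 0.70 log2 for Col1a2 (adjusted p = 0.0408), both past it. That centring also turned the split of all calls from 685 higher and 2934 lower to 2260 higher and 1804 lower. Both also passed when only these groups were fitted (adjusted p = 0.0275 for Col3a1 and 0.0302 for Col1a2), and Col1a2 under quantile normalization (adjusted p = 0.0477). Col3a1 also passed without the library of Cd+Se mouse 13 (adjusted p = 0.0416) or of mouse 15 (adjusted p = 0.0433), which enter the shared estimate of spread.

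In Cd+Se against Se, where 0.714% of genes were called and 1.96% lay wholly above the Se range, Col3a1 rose by 1.52 ± 0.324 log2 (fold 2.86, adjusted p = 0.0428). The size of that change ranged from 1.17 to 1.86 log2 over 24 alternatives, but the call was lost in 16 of them, with adjusted p-values up to 0.288, including 13 that left out a single library. Col1a1, Col1a2, Col3a1 and Col4a1 lay wholly above the Se range (exact permutation p = 0.0286 for each). For Cd+Se against control, with 0.484% of genes called and 3.88% wholly above, Col3a1 differed by 1.49 log2 (adjusted p = 0.0567) and Col1a2 by 0.97 log2 (adjusted p = 0.0819). Both passed without Cd+Se mouse 15, at 1.83 log2 (adjusted p = 0.00507) and 1.13 log2 (adjusted p = 0.0285), and with protein-coding genes only (adjusted p = 0.0320 and 0.0487). Col3a1 also passed with a pseudocount of 0.1 (adjusted p = 0.0470) or without the 20 highest genes (adjusted p = 0.0421). In Cd+Se against Se, Col1a2 was 0.94 log2 (adjusted p = 0.0761) and passed without Cd+Se mouse 15 (adjusted p = 0.0207) or with protein-coding genes only (adjusted p = 0.0432). Cd+Se exceeded Cd by 0.77 log2 in Col3a1 (adjusted p = 0.110) and 0.49 log2 in Col1a2 (adjusted p = 0.142), and the ranges overlapped. Without Cd+Se mouse 15, Col3a1 passed in that comparison too, at 1.11 log2 (adjusted p = 0.0259). When only the Cd and Cd+Se groups were fitted, 66 of all genes were called in that comparison, and none of the 10 genes or of the gene lists that follow. These comparisons share groups, so their values are not independent.

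Of 11 fibrillar collagen genes listed, 5 were tested, and 1 was called higher in Cd against control, where 5.82% of all genes were. That gene was Col5a3, a chain of collagen V, the minor fibrillar collagen that forms fibrils with collagen I. It measured 9.59, 9.07, 7.92 and 8.63 TPM in control and 20.68, 23.39, 20.67 and 14.67 TPM in Cd mice, without overlap, a rise of 1.07 ± 0.180 log2 (adjusted p = 0.000746) that held under 25 alternatives. The Cd+Se mice had 8.13, 11.93, 14.33 and 11.19 TPM, all below the Cd range, a fall of 0.76 log2 against Cd (adjusted p = 0.0150, and 0.0717 when only these groups were fitted), where 2.35% of genes were called lower. Col5a3 thus stood lower in Cd+Se than in Cd livers, whereas the means of Col1a1, Col1a2 and Col3a1 stood higher. Averaged over both diets the list had 3 of 5 genes higher (Col1a2, Col3a1 and Col5a3) and a median of 0.67 log2, beside 5.52% called higher and -0.10 log2 over all genes tested. The other chains of collagen V were low: Col5a1 ranged from 0.27 to 1.83 TPM and Col5a2 from 0.17 to 0.89 TPM over the 16 livers.

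Among genes that modify and fold collagen chains, P4ha1 and Ppib were higher in Cd livers. Of 27 listed, 12 were tested, and in Cd against control 2 were called higher and 3 lower, the latter a share near the 24.9% of all genes called lower (5.82% were higher), with a median of -0.01 log2 beside -0.17 log2 over all genes. P4ha1, the catalytic subunit of prolyl 4-hydroxylase, rose by 1.0 ± 0.210 log2 (adjusted p = 0.00277), and Ppib, a prolyl isomerase of the endoplasmic reticulum, by 0.60 log2 (adjusted p = 0.00402). Plod3, a lysyl hydroxylase, fell by 0.70 log2 (adjusted p = 0.00391). P4ha1 was 3.19 to 4.22 TPM in control and 6.26 to 10.49 TPM in Cd livers, and 4.12 to 7.09 TPM in Cd+Se livers, -0.63 log2 against Cd (adjusted p = 0.0521). In Cd+Se against Cd, 3 of the 12 were called higher and 1 lower, beside 13.6% and 2.35% of all genes (median 0.05 log2, beside 0.17 log2). Plod3 was 0.64 log2 higher (adjusted p = 0.0160) and Colgalt1, a collagen galactosyltransferase, 0.62 log2 higher (adjusted p = 0.00984), while Ppib fell by 0.46 log2 (adjusted p = 0.0303). Plod3 was not called without Cd+Se mouse 14 (adjusted p = 0.0502), and the Ppib call was lost in 7 of 26 alternatives, with adjusted p-values up to 0.0984, 5 of them the removal of Cd mouse 1 or 2 or of Cd+Se mouse 14, 15 or 16. Without mouse 15, 2 were called higher and none lower. Hepatocytes make these enzymes too.

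Col4a1 (ENSMUSG00000031502, chromosome 8, 11198423 to 11312826), the alpha 1 chain of collagen IV, was highest in the livers that received both agents. It measured 2.65, 2.54, 1.79 and 1.48 TPM in control, 1.54, 1.79, 2.10 and 0.88 TPM in Se and 1.95, 1.97, 1.54 and 1.97 TPM in Cd mice, all overlapping. The Cd+Se mice had 5.40, 3.73, 2.71 and 2.92 TPM, above every other liver. Cd+Se exceeded Cd by 0.68 ± 0.191 log2 (fold 1.61, adjusted p = 0.0268; exact permutation p = 0.0286), where 13.6% of genes were called higher and 16.1% lay wholly above the Cd range. Cd against control was -0.11 ± 0.191 log2 (adjusted p = 0.695), and the interaction of cadmium and selenium, for which 1.04% of genes were called, was 0.96 ± 0.271 log2 (adjusted p = 0.0830), so the diets were not shown to differ. Averaged over both diets, Col4a1 differed by 0.37 log2 (adjusted p = 0.0540), and it was called in 9 of 23 alternatives, with centring giving 0.50 log2 (adjusted p = 0.0142). Cd+Se against Se was 0.85 log2 (adjusted p = 0.0527), called in 6 of 24 alternatives, with the lowest adjusted p, 0.0259, without Cd+Se mouse 15. The call in Cd+Se against Cd was lost in 7 of 24 alternatives, among them centring on the median (0.49 log2, adjusted p = 0.0923). It was also lost without Cd mouse 5 (adjusted p = 0.0803) or Cd+Se mouse 13 (adjusted p = 0.0618). Without Cd+Se mouse 14 the adjusted p was 0.0672. A centred fit without the filter, not among the 24, lost it as well (0.49 log2, adjusted p = 0.134).

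The gene for the alpha 2 chain, Col4a2 (chromosome 8, 11312805 to 11449287), lies head to head with Col4a1: the annotated genes overlap at their starts, on opposite strands, and whether counting used strand is not given in the sources used here. Its level was 1.08 ± 0.0804 TPM in control, 1.17 ± 0.365 in Se, 1.30 ± 0.0947 in Cd and 1.96 ± 0.485 in Cd+Se livers. Cd+Se exceeded Cd by 0.35 log2 (adjusted p = 0.110), with overlap at Cd+Se mouse 15. The ratio of Col4a1 to Col4a2 ranged from 1.16 to 2.27 over the 16 livers, so the alpha 1 transcript was the more abundant per length in each. Among 24 basement membrane genes listed, 11 were tested, none was called in Cd against control (median 0.14 log2) and 2 were called higher in Cd+Se against Cd (median 0.24 log2, beside 0.17 log2 over all genes, of which 13.6% were called higher). These were Col4a1 and Col18a1, whose collagen XVIII carries the endostatin fragment, at 0.53 log2 (adjusted p = 0.0300). Neither was called without Cd mouse 5 or without Cd+Se mouse 13. Under centring on the median, 3 of the 11 were called higher in Cd against control, beside 19.2% of all genes, and in Cd+Se against Cd none was higher and 1 lower, beside 7.96% and 10.8%.

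Timp1 (ENSMUSG00000001131, chromosome X, 20870166 to 20874735), a secreted inhibitor of matrix metalloproteinases, was listed at 0 TPM in control mice 27, 29 and 30 and measured 1.0 TPM in control mouse 28. It measured 0.53, 0.60, 0.92 and 0.10 TPM in Se, 1.22, 1.05, 0.91 and 0.57 TPM in Cd and 4.98, 0.69, 0.94 and 2.02 TPM in Cd+Se mice. Control mouse 28 alone brought the control range into that of the mice given cadmium. Without the filter, the average over both diets was 0.79 ± 0.246 log2 (adjusted p = 0.0629; exact permutation p = 0.00591 with 8 against 8 livers) and the adjusted p was 0.0187 after centring on the median. Cd against control was 0.69 ± 0.348 log2 (adjusted p = 0.262, exact permutation p = 0.0857). In the average over both diets, centring without the filter turned the split of all calls from 671 higher and 1817 lower to 2341 higher and 1209 lower.

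Among the other inhibitors of the family, Timp3 fell in Cd livers. This gene, whose product binds to the matrix, measured 6.65, 8.21, 6.42 and 4.85 TPM in control and 3.46, 2.83, 1.22 and 3.66 TPM in Cd mice, a fall of 1.03 ± 0.248 log2 (adjusted p = 0.00613) without overlap that held under 25 alternatives. It was 7.44, 8.68, 3.90 and 8.05 TPM in Cd+Se mice, above every Cd liver, at 1.09 log2 over Cd (adjusted p = 0.0135, and 0.0719 when only these groups were fitted). Timp2 ranged from 1.15 to 3.08 TPM over the 16 livers, and Timp4 was listed at 0 in 15 of them. Of 29 metalloproteinase, inhibitor and related genes listed, 11 were tested, and in Cd against control none was called higher and 4 lower, beside 24.9% of all genes lower (median -0.22 log2, beside -0.17 log2 over all genes). Mmp15 and Adam9, membrane-bound proteases, fell by 0.88 log2 (adjusted p = 0.00817) and 0.69 log2 (adjusted p = 0.00333). In Cd+Se against Cd, 5 were called higher, where 13.6% of all genes were, and 2 to 3 without Cd mouse 5, Cd+Se mouse 13 or Cd+Se mouse 15.

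Acta2 (ENSMUSG00000035783, chromosome 19, 34241090 to 34255590), smooth muscle alpha-actin and the usual mark of an activated stellate cell, was low throughout. It measured 0.33, 0.36, 0.40 and 0.28 TPM in control, 0.44, 0.43, 0.08 and 0.38 TPM in Se, 0.29, 1.06, 0.38 and 0.74 TPM in Cd and 1.49, 0.69, 0.42 and 0.59 TPM in Cd+Se mice. Only the Cd+Se livers lay wholly above the control range (exact permutation p = 0.0286), narrowly so at mouse 15, and they overlapped it once the 20 highest genes were left out (exact permutation p = 0.0571). Averaged over both diets the difference was 0.33 ± 0.123 log2 without the filter (adjusted p = 0.124, exact permutation p = 0.0120) and 0.45 log2 after centring on the median (adjusted p = 0.0271). That centring turned the split of all calls from 671 higher and 1817 lower to 2341 higher and 1209 lower. The near-identical paralogs of Acta2, with which reads can be shared, were either almost silent or far more abundant. Acta1, Actc1 and Actg2 averaged 0.00500, 0.0100 and 0.0462 TPM, while Actb ranged from 132 to 237 TPM.

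Of 26 contractile and activation genes listed, 16 were tested, and 2 were called higher and 1 lower in Cd against control, beside 5.82% and 24.9% of all genes (median 0.15 log2, beside -0.17 log2 over all genes). The calcium-binding S100a6 rose by 1.16 log2 (adjusted p = 0.0250), the galectin Lgals1 by 0.62 log2 (adjusted p = 0.0400), and the integrin Itgb1 fell by 0.54 log2 (adjusted p = 0.0177). Neither rise was called without Cd mouse 5. S100a6 lost its call in 6 of 25 alternatives and Lgals1 in 7 of 26. Averaged over both diets 4 of the 16 were higher, beside 5.52% of all genes, but only 1 without Cd+Se mouse 13, where 4.45% of all genes were.

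The 3 genes that mark the stellate cell and its proteoglycan coat, Dcn, Reln and Lrat, ordered the groups in other ways. Dcn (ENSMUSG00000019929, chromosome 10, 97479609 to 97518143), decorin, was the most abundant of the 10 genes in every liver. It measured 85.15, 106.72, 99.39 and 73.18 TPM in control, 87.41, 112.49, 94.44 and 54.43 TPM in Se, 102.63, 71.68, 62.47 and 90.21 TPM in Cd and 132.84, 124.48, 50.62 and 140.45 TPM in Cd+Se mice. The groups overlapped in every comparison and none was called, with Cd against control at -0.17 ± 0.287 log2 (adjusted p = 0.691). Cd+Se mice 13, 14 and 16 were above every other liver, and mouse 15 was the lowest of the 16. Without mouse 15, Cd+Se exceeded Cd by 0.72 log2 (adjusted p = 0.0481).

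Reln (ENSMUSG00000042453, chromosome 5, 21884454 to 22344702) encodes reelin, a secreted glycoprotein that in the liver comes mainly from stellate cells. It measured 16.05, 20.17, 20.21 and 11.86 TPM in control mice and 10.85, 7.21, 7.04 and 8.64 TPM in Cd mice, without overlap. It was the only one of the 7 tested genes called in Cd against control, at -0.93 ± 0.246 log2 (fold 0.526, adjusted p = 0.0104; exact permutation p = 0.0286), beside the 24.9% of all genes called lower. The call held under 25 alternatives, with changes from -1.08 to -0.71 log2 and adjusted p-values from 0.00347 to 0.0373. Se mice, at 14.03, 17.70, 14.14 and 10.37 TPM, overlapped both groups. Cd+Se mice, at 12.51, 17.01, 7.71 and 20.23 TPM, spread over both ranges, with mouse 15 inside the Cd range and the other three above it. Cd+Se against Cd was 0.64 log2 (adjusted p = 0.0811), and 0.89 log2 without mouse 15 (adjusted p = 0.0236). The interaction was 0.90 ± 0.348 log2 (adjusted p = 0.160). In the average over both diets Reln differed by -0.48 log2 (adjusted p = 0.0548), called in 7 of 24 alternatives.

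Lrat (ENSMUSG00000028003, chromosome 3, 82892579 to 82903973), the enzyme that makes the retinyl ester store, measured 3.76, 4.78, 3.89 and 2.84 TPM in control, 2.40, 2.63, 3.65 and 1.73 TPM in Se, 4.94, 4.01, 1.85 and 3.82 TPM in Cd and 6.68, 5.81, 1.38 and 6.38 TPM in Cd+Se mice. Its change in Cd against control was -0.08 ± 0.320 log2 (adjusted p = 0.865), so the fall of Reln was not matched by Lrat in the same livers. Cd+Se again split, with mouse 15 the lowest of all 16 livers and the other three above every other liver. Cd+Se against Se was 0.64 log2 (adjusted p = 0.490), and 1.04 log2 without mouse 15 (adjusted p = 0.0317). In Se against control, where 0.0% of genes were called (0 of 11766, with 454 at an unadjusted p under 0.05), none of the 7 tested genes was at an unadjusted p under 0.05. The nearest was Lrat at -0.43 log2 (exact permutation p = 0.0571).

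Of 23 stellate cell markers listed, 16 were tested, and in Cd against control 1 was called higher and 3 lower, beside 5.82% and 24.9% of all genes, with a median of -0.21 log2 beside -0.17 log2 over all genes. Besides Reln, those lower were Steap4, a metalloreductase, at -1.01 ± 0.224 log2 (adjusted p = 0.00383), and Hgf, hepatocyte growth factor, at -0.63 ± 0.199 log2 (adjusted p = 0.0264). The Hgf call was lost in 7 of 25 alternatives, among them the removal of control mouse 28 (adjusted p = 0.0796), control mouse 29 (adjusted p = 0.0699), Cd mouse 5 (adjusted p = 0.0748) or Cd mouse 6 (adjusted p = 0.0525). Steap4 measured 98.64, 63.68, 64.90 and 76.24 TPM in control and 38.09, 38.64, 26.45 and 45.68 TPM in Cd mice, and 120.21, 68.35, 136.81 and 67.05 TPM in Cd+Se mice, where it was 1.33 log2 above Cd (adjusted p = 0.00470, and 0.0556 when only these groups were fitted). Steap4 is also made by hepatocytes, and it was the most abundant gene of the list. In Cd+Se mouse 15 it was the highest of the 16 livers, while Dcn and Lrat were the lowest. Desmin (Des), an intermediate filament of stellate cells, was 0.31 to 1.22 TPM over the 16 livers and lay below the filter.

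Tgfb1 (ENSMUSG00000002603, chromosome 7, 25687002 to 25705077), the TGF-beta ligand, measured 3.05, 3.46, 2.73 and 2.28 TPM in control, 2.46, 4.42, 2.69 and 2.00 TPM in Se, 2.93, 2.73, 2.48 and 2.65 TPM in Cd and 5.14, 4.58, 2.64 and 4.36 TPM in Cd+Se mice. Control, Se and Cd overlapped, and Cd against control was -0.06 ± 0.183 log2 (adjusted p = 0.824). Cd+Se against Cd was 0.46 ± 0.183 log2 (adjusted p = 0.0932), and passed without Cd+Se mouse 15 (0.62 log2, adjusted p = 0.0364) or without Se mouse 40 (0.46 log2, adjusted p = 0.0493). Tgfb2 and Tgfb3 were at most 0.29 and 0.69 TPM in any liver. Of 14 genes for ligands, latency and activation, 7 were tested and 1 was called lower in Cd against control, a smaller share than the 24.9% of all genes. It was Furin, a convertase that cleaves the TGF-beta precursor. Furin was 37.88 to 43.06 TPM in control and 18.76 to 32.49 TPM in Cd livers, a fall of 0.59 log2 (adjusted p = 0.00828). In Cd+Se livers it was 38.70 to 50.10 TPM, 0.67 log2 above Cd (adjusted p = 0.0128).

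Most of the tested receptor and Smad genes, which carry the signal to the nucleus, were called lower in Cd livers. Of 15 listed, 14 were tested, and in Cd against control 9 were called lower, 1 higher and 4 neither, beside 24.9% of all genes lower and 5.82% higher, with a median of -0.59 log2 beside -0.17 log2 over all genes. The number called lower was 8 under quantile normalization, 7 under centring on the median and 7 without Cd mouse 5. In Cd+Se against Se none of the 14 was called, with a median of 0.11 log2 (-0.03 log2 over all genes, 0.714% of them called). Averaged over both diets 1 was higher and 1 lower, where 5.52% and 19.6% of all genes were. The median there was -0.22 log2, beside -0.10 log2 over all genes. Tgfbr2, the ligand-binding receptor kinase, was 5.72, 4.65, 4.45 and 4.10 TPM in control and 2.49, 2.05, 1.0 and 2.01 TPM in Cd mice, a fall of 1.01 ± 0.245 log2 (adjusted p = 0.00638). Tgfbr1, its signalling partner, was 9.77, 11.26, 10.51 and 8.64 TPM in control and 6.88, 6.43, 3.35 and 4.87 TPM in Cd mice, a fall of 0.82 ± 0.194 log2 (adjusted p = 0.00545). The co-receptor Tgfbr3 fell by 0.78 ± 0.169 log2 (adjusted p = 0.00329). For all 3 receptors the Cd range lay below the control range, and the calls held under each alternative run, 25 for Tgfbr1 and 24 each for Tgfbr2 and Tgfbr3. Smad4, the common partner of the signalling Smads, fell by 0.60 log2 (adjusted p = 0.0102), and Tgif1, a transcriptional corepressor of Smads, rose by 0.75 log2 (adjusted p = 0.0276), a call lost in 6 of 26 alternatives, with adjusted p-values up to 0.0839 without Cd mouse 2. These genes are expressed in many liver cells, and the values do not say in which the change lay.

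In Cd+Se against Cd, 6 of the 14 were called higher and none lower (median 0.51 log2, beside 0.17 log2 over all genes, of which 13.6% were called higher), but only 1 was called without Cd mouse 5. Tgfbr1 was 0.76 log2 higher (adjusted p = 0.0188), Tgfbr3 0.67 log2 (adjusted p = 0.0186) and Skil, a Smad corepressor that TGF-beta signalling itself induces, 1.0 log2 (adjusted p = 0.00786). Without Cd mouse 5 the adjusted p was 0.0603 for Tgfbr1 and 0.0598 for Tgfbr3. Tgfbr2, at 4.52, 5.03, 1.65 and 4.47 TPM in Cd+Se mice, was not called (0.73 log2, adjusted p = 0.0535), with mouse 15 inside the Cd range. Of 14 genes known to respond to TGF-beta, 11 were tested, and 1 was higher and 1 lower in Cd against control, beside 5.82% and 24.9% of all genes, with a median of 0.12 log2. Of 6 genes for PDGF ligands and receptors, 2 were tested and neither was called in any comparison.

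**Figure D2:**
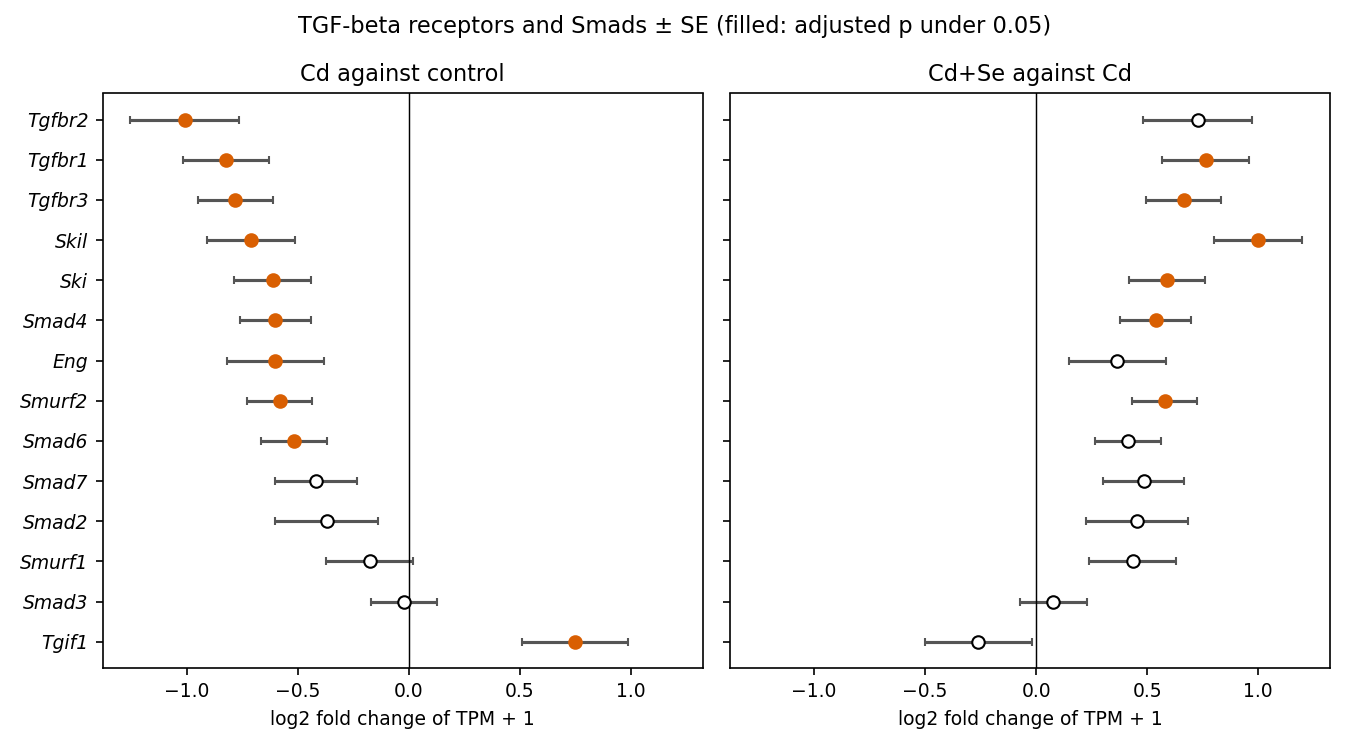
Log2 fold changes ± SE from limma of the 14 tested TGF-beta receptor and Smad pathway genes, in Cd against control and in Cd+Se against Cd, with filled symbols for an adjusted p under 0.05. In Cd against control 9 genes are filled below 0 and 1 above, and in Cd+Se against Cd 6 are filled above 0.

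Among the glycoproteins and proteoglycans of the matrix, 13 of 29 were tested, and 1 was higher and 3 lower in Cd against control, shares near the 5.82% and 24.9% of all genes. The gene called higher was Vtn, the most abundant of the list. Its call was lost in 4 of 26 alternatives: quantile normalization (adjusted p = 0.171) and the removal of control mouse 28 (adjusted p = 0.0741), control mouse 29 (adjusted p = 0.0576) or Cd mouse 2 (adjusted p = 0.0514). Fn1, fibronectin, which the hepatocyte secretes into plasma in large amounts, was 268 to 281 TPM in control and 149 to 220 TPM in Cd livers, a fall of 0.52 ± 0.122 log2 (adjusted p = 0.00513). It was 231 to 299 TPM in Cd+Se livers, 0.49 log2 above Cd (adjusted p = 0.0181, and 0.0558 without Cd+Se mouse 14). Prelp, a small leucine-rich proteoglycan, and Sdc1, a cell-surface heparan sulfate proteoglycan, were the other genes called lower, at -0.80 log2 (adjusted p = 0.00732) and -0.56 log2 (adjusted p = 0.00351). Of 12 other collagens listed, 4 were tested and none was called in the Cd group against control or in Cd+Se against Cd.

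Within the groups, several of the 10 genes rose and fell together from mouse to mouse. The following correlations describe 16 libraries after the group means were removed, and libraries share depth and tissue sampling. Col1a1 and Col1a2 gave r = 0.93, Col1a2 and Col3a1 r = 0.89, and Col1a1 and Timp1 r = 0.87. Dcn and Lrat gave r = 0.91, Dcn and Reln r = 0.90, and Dcn and Tgfb1 r = 0.85. Between the fibrillar collagens and these 4 genes, r ranged from 0.32 (Col1a1 and Reln) to 0.69 (Col3a1 and Dcn), and the upper values exceeded that of Col3a1 and Timp1, at r = 0.63. Col4a1 gave r = 0.76 with Col1a1 and 0.71 with Tgfb1, and Acta2 reached at most r = 0.47, with Col3a1. Cd+Se mouse 15 was the lowest of its group in Dcn, Lrat, Reln and Tgfb1. In the 15 livers without it, a repeat added after seeing the data, Dcn gave r = 0.78 with Lrat, 0.83 with Reln and 0.75 with Tgfb1, and the pairs of a fibrillar collagen with one of these 4 genes ranged from -0.02 (Col3a1 and Reln) to 0.47 (Col1a2 and Lrat). Col1a1 and Col1a2 were then at r = 0.90, Col1a1 and Timp1 at 0.87, and Acta2 reached at most 0.31, with Col1a1.

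**Figure D3:**
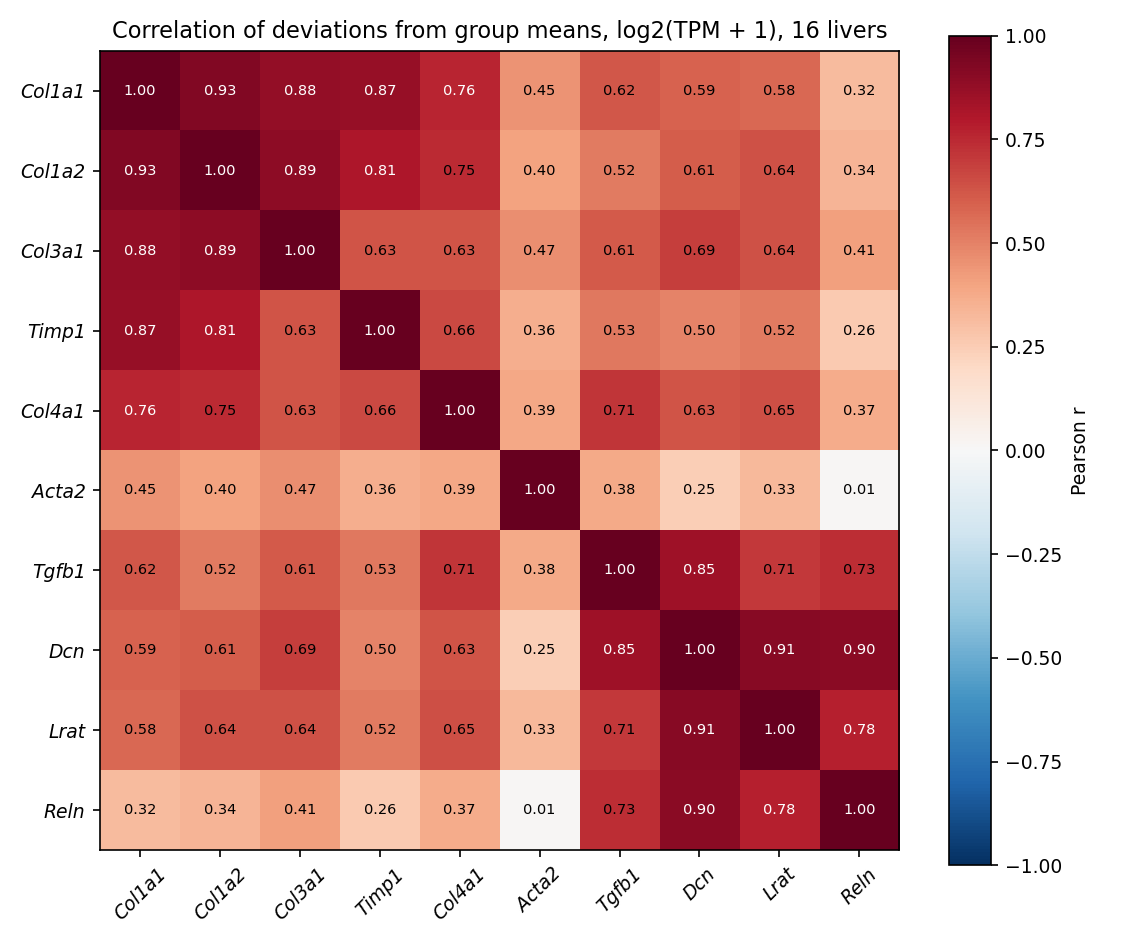
Pearson r of log2(TPM + 1) between the 10 genes over 16 livers, after removal of the mean of each of the 4 groups. The collagen I and III genes share values of 0.88 to 0.93, and Dcn reaches 0.90 and 0.91 with Reln and Lrat.

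Decorin was also set against collagen III, whose level itself separated the livers with and without cadmium. The ratio of Dcn to Col3a1 was 37.6 ± 8.50 in control and 35.6 ± 2.47 in Se livers, and 18.2 ± 6.33 in Cd and 12.9 ± 4.49 in Cd+Se livers (SD, n = 4 each). Its lowest value without cadmium was 30.9 and its highest with cadmium 24.6, so decorin and collagen III changed unequally in these libraries. The ratio of Col1a2 to Col1a1 exceeded 1 in all 16 livers and averaged 4.26 in control, 3.30 in Se, 2.67 in Cd and 2.13 in Cd+Se livers, with overlapping ranges.

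The genes whose pattern over the 16 libraries was most like the mean of Col1a1, Col1a2 and Col3a1 were Plac8 (r = 0.93), Anxa2 (r = 0.90), Cnn2 (r = 0.90), Capg (r = 0.90) and Oasl2 (r = 0.89). Those most like Timp1 were Oasl2 (r = 0.88), Anxa1 (r = 0.87), Ms4a6c (r = 0.86), Ccl2 (r = 0.84) and S100a6 (r = 0.84). Those most like Tgfb1 were Tagln2 (r = 0.94), Cxcl16 (r = 0.94), Fscn1 (r = 0.93), Klf7 (r = 0.91) and Dock10 (r = 0.90). These were picked for their likeness and carry no test.

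Markers of leukocytes and of Kupffer cells moved with the same groups. Of 10 leukocyte markers, 5 were tested, and 4 were called higher in Cd against control, where 5.82% of all genes were (median 0.66 log2), and all 5 in the average over both diets. In Cd against control, Ccr2 and Ly6c2 were not called without control mouse 29 (adjusted p = 0.0842 and 0.0548). Nor were they called without Cd mouse 2 (adjusted p = 0.0736 and 0.0552). The summed level of the leukocyte list was 23.35, 13.14, 14.87 and 23.42 TPM in control, 9.32, 13.33, 15.63 and 11.32 TPM in Se, 45.40, 49.88, 40.78 and 38.72 TPM in Cd and 88.47, 56.12, 49.36 and 61.99 TPM in Cd+Se mice. The livers with cadmium lay above those without it, and Cd+Se mouse 13, the highest in collagens, was the highest here too. The most abundant gene was S100a9, a calcium-binding protein of neutrophils and monocytes, and no marker of the list was at 0 in every liver. Their part in the collagen, Timp1 and Acta2 results was not tested.

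Markers of Kupffer cells, the resident macrophages, went the other way. All 12 listed were tested, and 10 were called lower in Cd against control, where 24.9% of all genes were (median -0.97 log2, and 9 lower under quantile normalization, under centring or without Cd mouse 5). Vsig4 and Timd4, a complement receptor and a phosphatidylserine receptor of resident macrophages, fell by 1.96 log2 (adjusted p = 5.25e-05) and 1.90 log2 (adjusted p = 1.42e-05). The summed level was 240.59, 283.05, 231.77 and 276.61 TPM in control, 173.41, 300.10, 260.92 and 180.98 TPM in Se, 157.39, 128.15, 123.05 and 169.01 TPM in Cd and 195.09, 217.78, 187.22 and 228.67 TPM in Cd+Se mice, with Lyz2 the most abundant and none at 0 in every liver. Cd livers lay below every other group. Kupffer cells express Tgfb1 as well, and their part in its level was not tested.

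Hepatocyte markers were followed as well. All 10 listed were tested, and 2 were called lower in Cd against control (median -0.26 log2), a share near the 24.9% of all genes. These were Cps1, the first enzyme of the urea cycle, at -1.36 log2 (adjusted p = 0.000169) and the transcription factor Hnf4a at -0.81 log2 (adjusted p = 0.00173). Both were higher in Cd+Se against Cd, at 0.87 log2 (adjusted p = 0.00838) and 0.58 log2 (adjusted p = 0.0239). Under centring on the median, 3 were called higher and 2 lower in Cd against control, beside 19.2% and 15.3% of all genes, and 2 higher and 2 lower in Cd+Se against Cd, beside 7.96% and 10.8%. Without Cd mouse 5, 1 was higher in Cd+Se against Cd, beside 5.02%. The Hnf4a call in Cd+Se against Cd was lost in 6 of 26 alternatives, among them the removal of Cd mouse 5 (adjusted p = 0.0781), Cd+Se mouse 14 (adjusted p = 0.0526) or Cd+Se mouse 15 (adjusted p = 0.0618). The summed level, mostly Alb, was 63480 to 85936 TPM in control, 63564 to 115755 in Se, 42183 to 69960.5 in Cd and 54860 to 74929 TPM in Cd+Se livers, all overlapping, and no marker was at 0 in every liver. Hepatocytes express Fn1, Steap4, Furin and the TGF-beta receptors, and their part in those results was not tested.

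Sinusoidal endothelial cells also make collagen IV. All 10 of their markers were tested. In Cd against control 1 was called higher and 4 lower, beside 5.82% and 24.9% of all genes. The median was -0.43 log2, beside -0.17 log2 over all genes. Stab1 was higher, at 1.13 log2 (adjusted p = 0.00660). The largest falls were those of Kdr, at -0.90 log2 (adjusted p = 0.0204), and Stab2, at -0.62 log2 (adjusted p = 0.0205). None of the 10 was called lower under quantile normalization, under centring or without Cd mouse 5. Their sum was 113 to 131 TPM in control, 90.3 to 120 in Se, 88.8 to 130 in Cd and 87.6 to 154 TPM in Cd+Se livers, all overlapping, with Fcgr2b the most abundant. Lyve1, a hyaluronan receptor of sinusoids and lymphatics, was 5.84 to 8.32 TPM in Cd+Se livers and at most 4.59 TPM in the others, 1.09 log2 above Cd (adjusted p = 0.0138, and 0.0719 when only these groups were fitted). Their part in the Col4a1 result was not tested.

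Portal fibroblasts, smooth muscle and mesothelium can make collagen too, and their part in the collagen results was not tested. Of 10 portal fibroblast markers 3 were tested and none was called, with a summed level of 18.2 ± 2.79 TPM in control, 21.2 ± 6.07 in Se, 19.8 ± 2.31 in Cd and 22.6 ± 2.84 TPM in Cd+Se livers, mostly Gas6. Elastin (Eln) and Fbln2, which mark portal fibroblasts more closely, averaged 0.314 and 0.326 TPM over the 16 livers, beside 0.806 TPM for Col1a1 and 0.749 TPM for Des. Of 9 vascular smooth muscle markers 3 were tested and 1 was lower in Cd against control, beside 24.9% of all genes: Mylk, at -0.72 log2 (adjusted p = 0.00138). Mylk was 0.53 log2 higher in Cd+Se than in Cd livers (adjusted p = 0.0189), a call lost in 6 of 26 alternatives, among them centring (adjusted p = 0.112) and the removal of Cd mouse 5 (adjusted p = 0.0561) or Cd+Se mouse 14 (adjusted p = 0.0531). Myh11 averaged 0.207 TPM. Of 6 mesothelial and 8 cholangiocyte markers 1 each was tested, and neither was called. The stellate cell list itself summed to 205 to 236 TPM in control, 147 to 195 in Se, 131 to 197 in Cd and 211 to 293 TPM in Cd+Se livers, below the control range in every Cd and Se liver. Steap4, which hepatocytes also make, carried much of that difference, at 75.9 ± 16.2 TPM in control, 49.7 ± 3.85 in Se, 37.2 ± 7.97 in Cd and 98.1 ± 35.8 TPM in Cd+Se livers. Without it, a sum added after seeing the data, the list came to 149 ± 19.6, 128 ± 17.9, 125 ± 24.1 and 151 ± 51.5 TPM in the same order, and the groups overlapped.

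**Figure D4:**
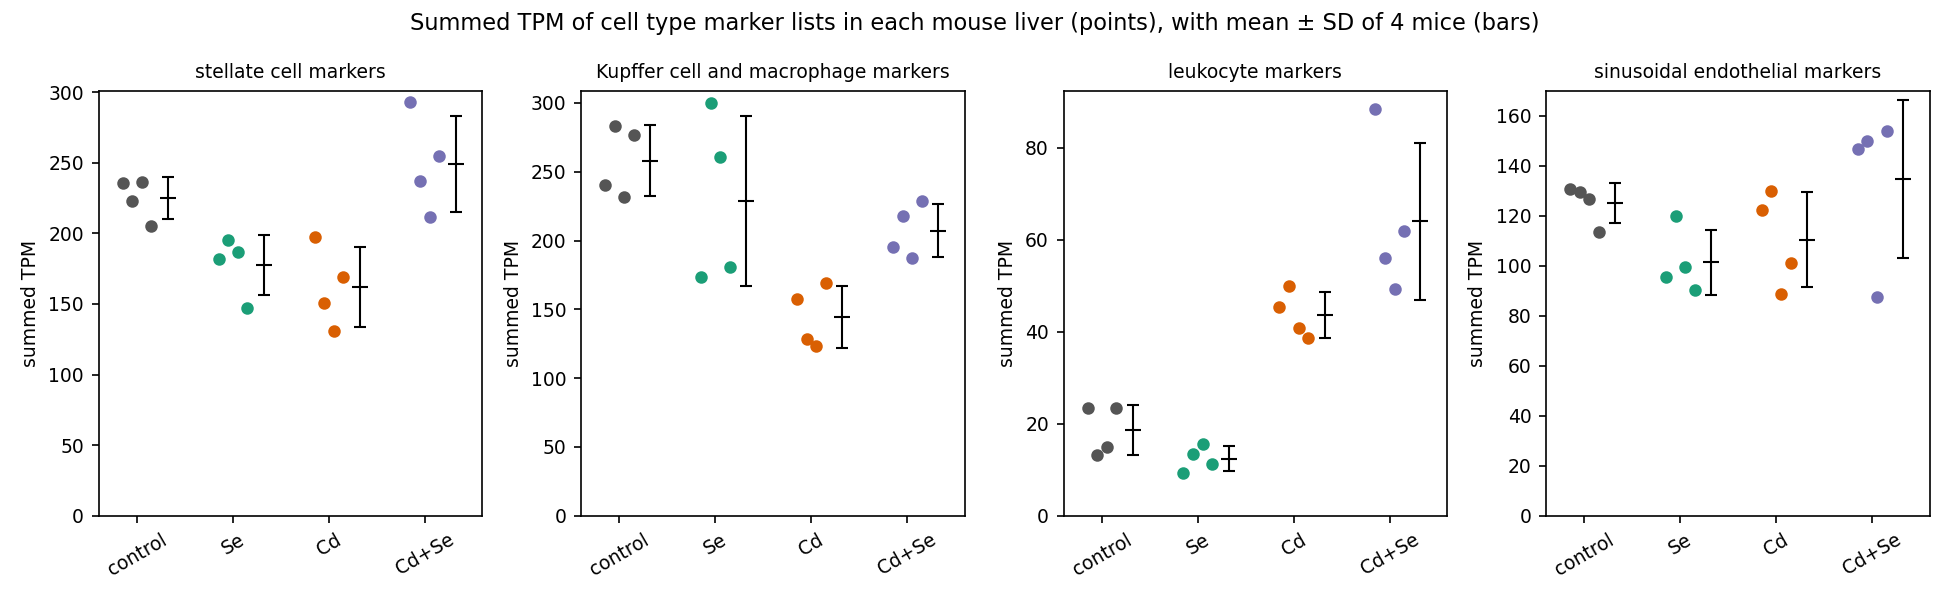
Summed TPM of 4 marker lists in each of the 16 livers (stellate cell, Kupffer cell and macrophage, leukocyte, and sinusoidal endothelial), by group, with the mean ± SD of 4 mice. The leukocyte sum lies between 38.7 and 88.5 TPM with cadmium and between 9.32 and 23.4 TPM without it, and the Kupffer cell sum is lowest in the Cd group. Steap4 is the most abundant gene of the stellate cell sum.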

How the data were processed

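Liver RNA of 16 mice, 4 in each of 4 groups, was read from 1 deposited table of TPM values, in which each mouse has 1 column although its title names repeats. Per the labels, the authors used poly(A)-selected RNA and the tools fastp, HISAT2 and StringTie; versions are not given in the sources used here, and the build named there is the human GRCh38 although the gene identifiers are mouse Ensembl. TPM holds no counts, so the depth behind a value is unknown and no counting interval was given. Each library summed to 1000000 TPM within rounding.

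Values were analysed as log2(TPM + 1) for the genes that averaged 1 TPM or more over the libraries. One model with a mean per group was fitted to all 16 libraries with limma 3.58.1 in R 4.3.3 (empirical Bayes with trend), with Benjamini-Hochberg adjustment over 11766 genes and a threshold of 0.05. Single genes were also compared by two-sided exact permutation tests with SciPy 1.17.1, whose smallest p with 4 against 4 mice is 0.0286. The scripts were tested on simulated data. Alternatives were a pseudocount of 0.1, no filter or 5 TPM, quantile normalization, centring of each library on its median, rescaling without the 20 highest genes or to protein-coding genes, no trend, only the groups compared, and each mouse left out. A minimum log2 change of 1 was applied to the counts over all genes only, and is not among the alternatives given for single genes. For list genes, alternatives with a lost call in Cd against control or Cd+Se against Cd also count a centred fit without the filter. Counts for the 10 genes, for calls that held and for the interaction leave that fit out. The average of cadmium over both diets, its centred fit without the filter, the counts of lists without single libraries, the stellate cell sum without Steap4, and the correlations without Cd+Se mouse 15 were chosen after seeing the data.

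The 10 genes and the lists were chosen with earlier results of these data known. Of each list the text names up to 3 genes with the largest changes among those called for the Cd group against control, Cd+Se against Cd and the interaction, besides the defining and most abundant markers, the actin and Timp families and Col4a2; Col5a1, Col5a2, Des, Tgfb2 and Tgfb3 were named after their values were seen. Positions are from GENCODE M21 on GRCm38, and promoters were given for 8 of the 10 genes. Some genes of the lists are counted but not reported here by name.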

Additional observations from a re-analysis of the deposited data

Results flagged for a closer look

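Among the 40 sets of 4 mice formed by the 10 genes and 4 groups, 4 had a mouse far from the other three, by Dixon's ratio of the gap to the range, where chance gives about 2. Timp1 in control mouse 28 had a ratio of 1.0, since the other three controls were listed at 0. Col4a1 in Cd mouse 5 was low, with a ratio of 0.954. Lrat in Cd+Se mouse 15 was low, with a ratio of 0.836. Acta2 in Se mouse 41 was low, with a ratio of 0.833.

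The interaction term in limma, the difference in the effect of cadmium between the diets, was called for 3 genes of the lists. Over all genes tested it was called for 122 of 11766, or 1.04%. The count of 3 was not tested against that share. The metalloreductase Steap4 gave 1.91 log2 (adjusted p = 0.0176), the fibronectin gene Fn1 0.80 log2 (adjusted p = 0.0416) and the sinusoidal receptor Lyve1 1.62 log2 (adjusted p = 0.0434). The calls were lost in 1 of 24 alternatives for Steap4, 12 of 24 for Fn1 and 13 of 23 for Lyve1, with adjusted p-values up to 0.0501, 0.0979 and 0.108. None of the 7 tested stellate cell and matrix genes was called in that term. Of these 7, 2 were at an unadjusted p under 0.05 in limma, as were 2505 of all 11766 genes tested.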

How the results depend on the processing

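No called change of a named gene turned its sign under any alternative run. The number of genes called across the table moved more. In Cd against control, 3619 became 376 with a log2 change of at least 1, and in the average over both diets 2959 became 117. For Cd+Se against Cd, 1876 became 1131 without the filter, 66 with only these groups and 110 with a log2 change of at least 1 (712 to 2164 leaving out single mice). In Cd+Se against control, 57 became 26 with 5 TPM, 104 under quantile normalization, 101 under centring, 126 without the 20 highest genes and 18 with only these groups (26 to 103 leaving out single mice). The 84 of Cd+Se against Se became 31 with 5 TPM and 11 with only these groups (28 to 193 leaving out single mice). The interaction went from 122 to 26 without the filter, 524 under quantile normalization, 731 under centring, 451 without the 20 highest genes, 190 with protein-coding genes and 71 with a log2 change of at least 1 (2 to 348 leaving out single mice). Se against control had 0 to 2 calls leaving out single mice. Of the 10 genes, those without overlap between the groups numbered 3 to 5 in Cd against control, 1 to 6 in Cd+Se against Cd, 5 to 8 in Cd+Se against control, 0 to 1 in Se against control and 4 to 7 in Cd+Se against Se when single mice were left out, with the highest values in the 3 comparisons of Cd+Se without Cd+Se mouse 15. With all mice, 6.44% of all genes tested lay wholly above and 27.8% wholly below in Cd against control. The share wholly above was 16.1% in Cd+Se against Cd, 3.88% in Cd+Se against control and 1.96% in Cd+Se against Se. Smaller groups overlap less often, and the shares of all genes with single mice left out are not given. Those counts are therefore no result about the 10 genes. The cause of the shifts in all these counts was not tested, other than that fits of only the groups compared hold fewer samples. Centring moved the calls of Cd+Se against Cd from 1600 higher and 276 lower to 937 higher and 1272 lower, and of the interaction from 106 and 16 to 315 and 416. No paired analysis was possible because the mouse numbers differ between the groups.

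Col1a1, Acta2 and Timp1 lay below the filter, where small absolute differences set the fold, and with 4 mice a group a p that misses the threshold does not show that levels were equal. The injection vehicle and the control diet are unknown, and cadmium or selenium cannot be told apart from what else differed between the groups.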
